A study of Mus musculus with 4 samples.

Results

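The transcripts described here are 10 mouse genes that regulate growth of the tail end of the embryo and formation of the presomitic mesoderm: T (brachyury), Tbx6, Msgn1, Cdx1, Cdx2, Cdx4, Wnt3a, Evx1, Gbx2 and Cyp26a1. All their non-control probes were taken by gene name from the scanner files, which gave 11 of the 41174 gene probes on each array. Gbx2 had 2 probes, and the single T probe was spotted 10 times on each array. Of the 10 genes, 9 were among the 17160 genes that passed the filter on dim probes, and Cdx4 was not. The genes were chosen with their ratios between genotypes in these arrays already known. Those ratios are therefore given as a description with no test, and support nothing beyond these arrays.

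The study compared embryos lacking nucleoredoxin (Nxn, a thioredoxin-related protein; genotype NRX -/- in the labels, whose descriptions also call this RNA KD) with wild-type embryos (NRX +/+), both from C57BL/6J mice, at the embryonic stages E9.5 and E11.5. No treatment was given. RNA of both genotypes was hybridised together, in different dyes, on Agilent whole-genome oligonucleotide arrays, with 2 arrays a stage and 4 in all. The Nxn-null RNA was in Cy5 on replicate 1 and in Cy3 on replicate 2 of either stage. Neither the number of embryos behind an RNA nor the use of separate extracts for a dye swap is stated, so p-values and the spread between arrays may reflect technical scatter alone. The RNA came from embryos with no dissection named in the labels, and in such bulk RNA fewer cells of a type and less RNA per cell cannot be told apart.

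The arrays had 43379 gene spots each, of which 0 to 7 were saturated. On all 4 arrays Nxn itself gave less signal in the null channel, at 44.8% of the wild-type level by its brighter probe and 50.6% by the other. Where these probes sit relative to the mutation is not stated, so the remaining signal does not show how far the transcript is lost. Of the gene probes, 47.8% to 70.1% were well above background over the 8 channels, and on each array it was higher in Cy5. Xist, the RNA that coats an inactivated X, differed between genotypes by -0.43 at E9.5 and 5.83 at E11.5 (log2), and the Y-linked Eif2s3y by 0.09 and -3.59. Sex-linked transcripts thus differed between the genotypes at E11.5, and the part of embryo sex in the E11.5 ratios was not tested. Markers of yolk sac endoderm, the absorptive and secretory epithelium outside the embryo proper, also differed at E9.5. All 12 listed markers were lower in the Nxn-null RNA, and their summed signal was 16620 to 20020 there against 164100 to 166800 in wild type. At E11.5 the sums overlapped, at 78450 to 78800 and 77880 to 86370.

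The vertebrate trunk and tail are laid down from a growth zone at the posterior end of the embryo, where progenitors give rise to spinal cord and to presomitic mesoderm. Wnt3a is the secreted signal that keeps this zone going; T, Tbx6 and Msgn1 are transcription factors that commit its cells to mesoderm; and the caudal factors Cdx1, Cdx2 and Cdx4 sustain axial growth and switch on posterior Hox genes. Cyp26a1 is an enzyme that breaks down retinoic acid in the tailbud and so shields it from that differentiation signal, and Evx1 and Gbx2 are homeobox factors of the posterior embryo that also act in spinal interneurons and at the midbrain-hindbrain border. Several of these genes are known targets of Wnt/beta-catenin signalling, the pathway named in the title of the study.

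The upstream sequences of the genes the results turn on are shown with the matches to short recognition sequences that a search found in the 250 bases before the annotated start (RefSeq, build GRCm38.p6). Both strands were searched for the TCF/LEF core of Wnt-responsive DNA (CTTTGA or CTTTGT, present in 27.6% of 32851 promoters), a T-box core (AGGTGT, 11.8%), a caudal core (TTTATG, 10.8%) and the direct repeat bound by retinoic acid receptors (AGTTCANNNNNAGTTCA, 0.0213%, or 7 promoters). Of the 10 genes, 9 had a promoter entry. Capitals mark the matches, which are a description of letters and not of sites bound. Tbx6 and Cdx2, which had the lowest ratios at E9.5, have no match in the window. Msgn1, whose signal was low and whose ratio is uncertain in size, has 3 TCF/LEF matches and 1 caudal match. T, which was also lower at E9.5, has 1 TCF/LEF match. No link between matches and ratios was tested. The windows lie at chr7:126781233-126781482 on the + strand for Tbx6, at chr5:147307250-147307499 on the - strand for Cdx2 and at chr12:11208949-11209198 on the - strand for Msgn1, and are written 5′ to 3′ along the gene.
Tbx6: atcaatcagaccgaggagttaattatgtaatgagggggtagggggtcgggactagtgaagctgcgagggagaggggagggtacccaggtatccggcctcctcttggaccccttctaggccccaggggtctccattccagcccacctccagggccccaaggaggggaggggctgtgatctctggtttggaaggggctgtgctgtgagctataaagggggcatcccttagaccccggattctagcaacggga
Cdx2: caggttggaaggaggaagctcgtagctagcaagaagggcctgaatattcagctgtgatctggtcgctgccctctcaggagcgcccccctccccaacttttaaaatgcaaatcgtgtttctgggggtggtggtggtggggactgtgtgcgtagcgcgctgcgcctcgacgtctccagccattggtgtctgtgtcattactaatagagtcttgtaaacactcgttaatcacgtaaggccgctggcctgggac
Msgn1: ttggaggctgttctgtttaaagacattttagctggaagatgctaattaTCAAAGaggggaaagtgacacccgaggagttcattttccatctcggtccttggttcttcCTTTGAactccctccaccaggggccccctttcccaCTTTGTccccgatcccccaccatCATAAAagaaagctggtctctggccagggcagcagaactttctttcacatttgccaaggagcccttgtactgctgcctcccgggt

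The window of T holds 1 match of each of the first 3 kinds, shown with their flanks because T was the third gene with a clearly lower ratio at E9.5. The TCF/LEF match starts 234 bases before the gene (chr17:8434183-8434200), the caudal match 178 bases (chr17:8434239-8434256) and the T-box match 14 bases (chr17:8434403-8434420). T lies on the + strand and the letters are written along it; the TCF/LEF core reads on the - strand, so it appears as its reverse complement, and the other matches read on the + strand. The window of Cyp26a1 holds the retinoic acid direct repeat, starting 32 bases before the annotated start used (chr19:37697770-37697798, written along the + strand, on which the gene lies). The annotated span of Cyp26a1 itself reaches into this window. The repeat as searched reads on the - strand and appears as its reverse complement. Farther upstream are 2 T-box matches. The windows of Cdx4 and Evx1 each hold 1 T-box match, and those of Wnt3a and Gbx2 none of the 4 kinds.
T, TCF/LEF match: ggtactTCAAAGggtgtc
T, caudal match: gctgtaTTTATGgggagg
T, T-box match: ggacccAGGTGTaatctt
Cyp26a1, retinoic acid direct repeat: taaagaTGAACTTTGGGTGAACTaatttg

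At E9.5 Tbx6 and Cdx2 were the genes of the group with far lower levels in the Nxn-null RNA, T was lower to a smaller degree, and Wnt3a was higher. At E11.5 the ratios of T and Tbx6 were 0.07 and 0.05, Cdx2 was at 89.5% of the wild-type level, and Wnt3a was still higher, at 130%. Each ratio is the null level over the wild-type level on the log2 scale, after background correction and within-array loess, so -1 is a 2-fold lower level. At E9.5, 2 of the 9 tested genes were at least 2-fold lower, the fold named in the design text of the series, against 129 of 17160 genes in all (0.752%). None was at least 2-fold higher (0.0874% of all genes were) and none was 2-fold apart at E11.5 (0.204% of all genes were). A ratio below 0 on both E9.5 arrays and above 0 on both E11.5 arrays was seen for 6 of the 10, Cdx4 among them. It was seen for 5.78% of all genes tested, which leave out Cdx4. With median centring in place of loess, the stage means of T and Cdx1 no longer had these signs. Since the genes were chosen on this contrast, nothing is read from these counts. The 9 had a median ratio of -0.12 at E9.5 and of 0.07 at E11.5, beside -0.00078 and 0.0072 over all genes.

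**Figure D1:**
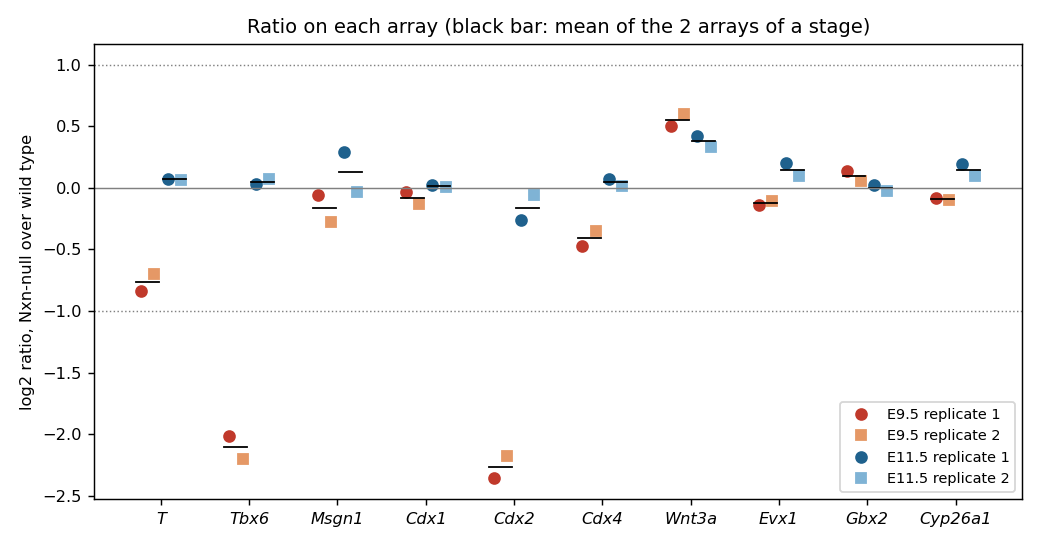
Log2 ratio of Nxn-null over wild type (vertical axis) for the 10 genes on each of the 4 arrays, with circles for replicate 1, squares for replicate 2, red for E9.5 and blue for E11.5. Black bars are the means of the 2 arrays of a stage and dotted lines mark 2-fold. Tbx6 and Cdx2 lie near -2.11 and -2.27 at E9.5 and close to 0 at E11.5, and Wnt3a lies above 0 on all 4 arrays.

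Among the mesodermal factors, Tbx6, the T-box factor that sets presomitic mesoderm apart from neural tissue, had the largest difference. Its spots read 290 and 168 in the Nxn-null channel of E9.5 replicates 1 and 2 against 633 and 1490 in the wild-type channel, over local backgrounds of 54 to 60. The log2 ratio was -2.01 and -2.20, a mean of -2.11 ± 0.13 (SD, n = 2 arrays) or 23.2% of the wild-type level. The Nxn-null levels lay below both wild-type levels, and all 4 channels were well above background. At E11.5 the spots read 511 and 294 with Nxn-null RNA and 331 and 511 with wild-type RNA, and the ratio was 0.03 and 0.07. There the normalized levels of the genotypes differed by less than the levels of a genotype differed between arrays.

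T, the T-box factor of the primitive streak, tailbud and notochord, was dimmer. At E9.5 its spots averaged 129 and 115 with Nxn-null RNA and 171 and 274 with wild-type RNA, and the ratio was -0.83 and -0.70, a mean of -0.77 ± 0.097 (SD, n = 2 arrays) or 58.8% of wild type. All 10 spots gave a ratio below 0 on both arrays, from -1.01 to -0.69 on replicate 1 and from -0.96 to -0.37 on replicate 2. The spots repeat 1 probe and measure technical scatter within an array, not embryos. None of the 10 Nxn-null spots of replicate 2 was well above background, so the size of the fold is uncertain. It was -2.03 from the processed signals of Feature Extraction, which subtract background without an offset. At E11.5 the ratio was 0.07 on each array, and the mean was 0.42 with the Feature Extraction processed signals and -0.01 with median centring. On replicate 1, 4 of the 10 spots lay below 0 and no wild-type spot was well above background; on replicate 2 the spots ran from 0.03 to 0.12.

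**Figure D2:**
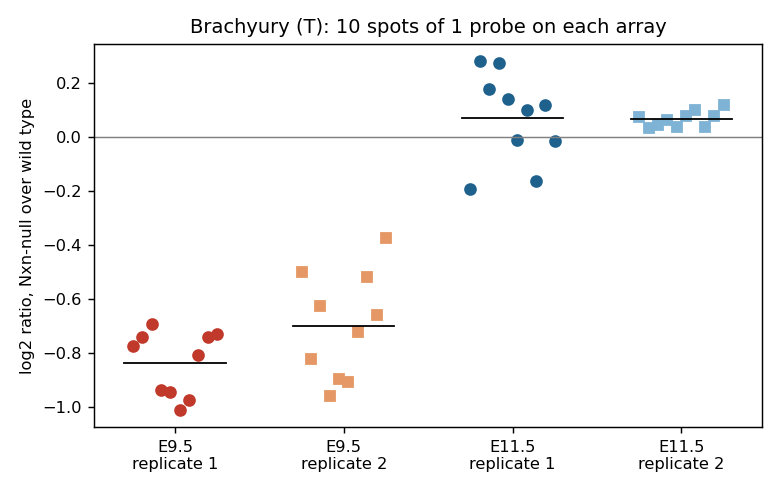
Log2 ratio of Nxn-null over wild type (vertical axis) at each of the 10 spots of the T probe on the 4 arrays; black bars are the array means. The spots of both E9.5 arrays lie between -1.01 and -0.37, and those of the E11.5 arrays between -0.19 and 0.28.

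Msgn1, the bHLH factor that drives presomitic mesoderm to mature, had ratios nearer 0. Its ratio was -0.06 and -0.28 on the E9.5 arrays, then 0.29 and -0.03, so the arrays of E11.5 disagreed in sign. Its mean of -0.17 ± 0.16 (SD, n = 2 arrays) at E9.5 was about as large as its SD. Its signal was low, at 101 to 169 in all 8 channels over backgrounds of 53 to 58, and 2 of these channels were not well above background. With the Feature Extraction processed signals the means were -0.59 at E9.5 and 0.48 at E11.5, so the size is uncertain.

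Of the caudal factors, Cdx2 had the lowest ratio of the group. At E9.5 its spots read 196 and 129 with Nxn-null RNA, against 583 and 1130 with wild-type RNA. The ratio was -2.36 and -2.18, a mean of -2.27 ± 0.13 (SD, n = 2 arrays), 4.81-fold lower or 20.8% of the wild-type level. Only replicate 1 of the Nxn-null channel was well above background, and the mean was -3.39 with the Feature Extraction processed signals, so the size of the fold depends on how the dim channel is treated. At E11.5 the spots read 159 and 114 with Nxn-null RNA and 173 and 181 with wild-type RNA, with ratios of -0.26 and -0.06. Both genotypes were then as dim as the Nxn-null RNA had been at E9.5, and the mean ratio of -0.16 was about as large as its SD of 0.15.

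Cdx4, the X-linked caudal gene, was close to background throughout. At E9.5 its spots read 72.3 and 97.9 with Nxn-null RNA and 99.1 and 137 with wild-type RNA, and 1 wild-type channel alone was well above background. The value computed as a bound was 1.33-fold lower in the Nxn-null RNA, the ratios of Cdx4 being -0.47 and -0.35. It is not a firm bound, because the wild-type mean takes in replicate 1, which did not pass background. A bound here sets the mean of the brighter group against the lowest signal that passed background, or the dim probe's own signal where that was higher. At E11.5 no channel was well above background. Cdx1, the other caudal gene, had ratios of -0.03 and -0.13 at E9.5, with a mean of -0.08 ± 0.07 (SD, n = 2 arrays), and at E11.5 none of its channels passed background. With median centring in place of loess its E9.5 mean was 0.13, so it has no settled direction. The 3 caudal genes thus differed in their ratios at E9.5, with only Cdx2 at least 2-fold apart. They also differed in brightness. Wild-type spots of Cdx1 read 129 and 122 at that stage, near those of Cdx4, against 583 and 1130 for Cdx2. With the offset added to signals so near background, little room is left for a 2-fold ratio. By the Feature Extraction processed signals the E9.5 means were -0.43 for Cdx1 and -3.39 for Cdx2. Neither the differences between genes nor the part of signal level in them was tested.

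Wnt3a, the ligand, differed in the opposite direction. Its normalized log2 level at E9.5 was 9.99 and 10.05 in Nxn-null channels, and in wild-type channels 9.49 and 9.46, and at E11.5 it was 9.02 and 8.995 against 8.60 and 8.66. At both stages the Nxn-null levels lay above both wild-type levels, and all 8 channels were well above background. The ratios were 0.50 and 0.60 at E9.5, a mean of 0.55 ± 0.068 (SD, n = 2 arrays) or 146% of wild type. At E11.5 they were 0.42 and 0.33, a mean of 0.38 ± 0.065 or 130%. Wnt3a and Cdx2 were the only genes of the 9 with the same sign on all 4 arrays. Over all 17160 genes, limma on the 2 stage averages called 0 for a ratio shared by both stages (0% of genes; 1240 at an unadjusted p under 0.05, lowest adjusted p = 0.395).

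Cyp26a1, the retinoic acid hydroxylase of the tailbud, had E9.5 ratios of -0.08 and -0.10 and E11.5 ratios of 0.20 and 0.10, with all 8 channels well above background. Its Nxn-null level at E9.5 was 93.8% of wild type. Evx1, the homeobox factor of the streak and of spinal interneurons, had -0.14 and -0.11 at the earlier and 0.20 and 0.09 at the later stage. Gbx2, which sets the hindbrain side of the midbrain-hindbrain border, had 0.14 and 0.05 and then 0.02 and -0.02 by its brighter probe. Its other probe was not well above background in any channel. The stage means of these 3 genes lay within 0.15 of 0, but with the Feature Extraction processed signals Evx1 was at 0.52 and Cyp26a1 at 0.25 at E11.5.

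**Figure D3:**
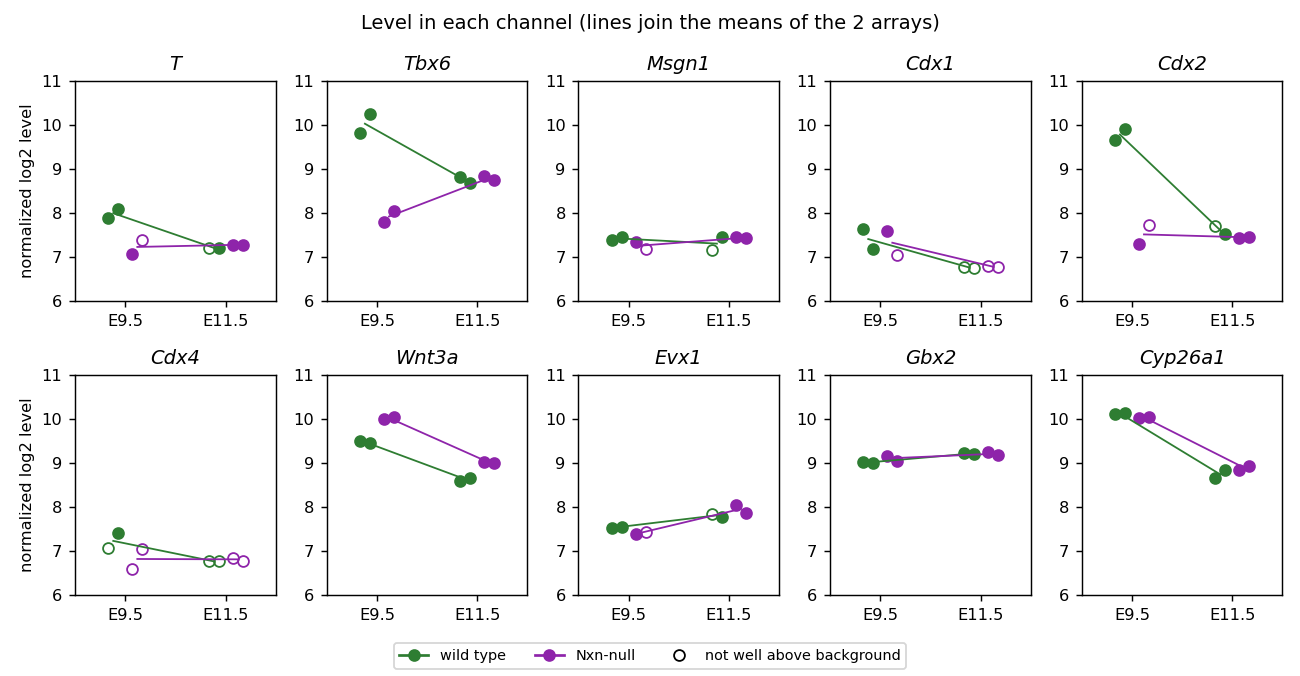
Normalized log2 level (vertical axis) of the 10 genes in each channel at E9.5 and E11.5, green for wild type and purple for Nxn-null; open circles were not well above background and lines join the means of the 2 arrays of a stage. Wild-type Cdx2 goes from a mean of 9.79 to 7.61 and wild-type Tbx6 from 10.03 to 8.75, while the Nxn-null means go from 7.52 to 7.45 and from 7.93 to 8.80.

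The change between the stages was the comparison that did not use the difference between genotypes. It was tested with limma on the E11.5 minus E9.5 difference of the single-channel level, with the genotypes as the 2 replicates. Whatever shifts an array's channels alike is missing from the error of this test, so its p-values are too small. It called 3613 of all 17160 genes lower (21.1%) and 3610 higher (21.0%) at E11.5. Of the 9 tested genes, Cyp26a1 and Wnt3a fell and Evx1 rose. Cdx1 was called lower as well, but it was in the test only through wild type at E9.5, where it was bright, so nothing is read from its call. The median difference of the 9 was -0.37, beside -0.02 over all genes.

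Cyp26a1 fell by 1.27 ± 0.0848 on the log2 scale (moderated SE, n = 2 genotypes; limma adjusted p = 0.00615), a 2.40-fold change. The difference was -1.18 and -1.11 between Nxn-null channels of like dye, and -1.46 and -1.31 between wild-type channels, so every pairing gave a fall of similar size. Wnt3a fell by 0.93 ± 0.0734 (limma adjusted p = 0.00671), with differences of -1.02 for Nxn-null and -0.84 for wild type. Wnt3a thus fell in both genotypes from a higher level in the Nxn-null RNA.

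Cdx1 had no channel well above background at E11.5, so its difference is given with no test. In wild type the value computed as a bound was 1.56-fold lower than at E9.5. It rests on the probe's own dim signal, and equals the mean difference of -0.64. Wild-type channels of like dye differed by -0.86 and -0.43, so not every pairing reached it. For the Nxn-null RNA the like value was 1.37-fold. It is not a firm bound, because 1 of the Nxn-null channels at E9.5 did not pass background. Evx1 rose by 0.41 ± 0.0905 (moderated SE, n = 2 genotypes; limma adjusted p = 0.0337), with 0.54 for Nxn-null and 0.27 for wild type, and its adjusted p was 0.0643 with the Feature Extraction processed signals. Gbx2 at 0.15 ± 0.0641 and Msgn1 at 0.03 ± 0.0956 did not pass (limma adjusted p = 0.14 and 0.837).

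The remaining genes went different ways in the 2 genotypes, and the average over genotypes describes neither. Tbx6 differed between the stages by -1.28 in wild type (-0.995 and -1.57 between channels of like dye) and by 0.87 in the Nxn-null RNA (1.05 and 0.70). Cdx2 differed by -2.17 in wild type and by -0.06 in the Nxn-null RNA, and T by -0.79 and 0.05. Limma adjusted p-values for the average were 0.788 for Tbx6, 0.172 for Cdx2 and 0.247 for T; without E9.5 replicate 1 Cdx2 was called (-1.29, limma adjusted p = 0.045). The Nxn-null level at E9.5 differed from the wild-type level at E11.5 by 0.02 for T and by -0.10 for Cdx2, and further below it for Tbx6 (-0.83). For T and Cdx2, 1 channel on each side of this comparison was not well above background, so a small difference does not show that the levels were alike; for Tbx6 all channels passed. The gap between the genotypes in these stage differences follows from the ratios given above, and was not tested on its own.

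**Figure D4:**
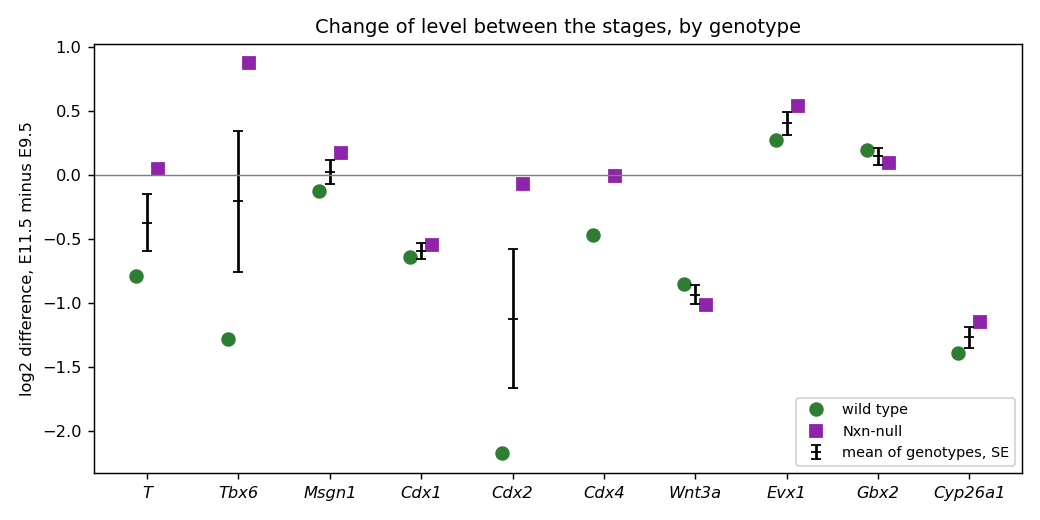
E11.5 minus E9.5 difference of the normalized log2 level (vertical axis) for the 10 genes, green circles for wild type and purple squares for Nxn-null, with the mean of the genotypes and its moderated SE as bars (none for Cdx4, which was not tested). The genotypes lie close together for Wnt3a, Cdx1, Gbx2 and Cyp26a1 and far apart for Tbx6 and Cdx2.

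Most other genes of the tailbud and of neuromesodermal progenitors had ratios near 0 at E9.5. In the fit of the 4 arrays, a dye term takes up the disagreement within a dye-swapped pair that both stages share. A ratio is called beyond array spread against what is left, namely how differently the pairs of the stages disagree, moderated over all genes. A called ratio can thus be smaller than its SD between arrays. The lists were chosen with earlier results of these data known, and the genes named are the extremes of those called. Calls and p-values for this list and those below therefore describe these arrays and are not independent tests. The fit compares the RNAs hybridised, and at E9.5 it called 14.8% of all genes lower and 9.88% higher. Of 17 tested tailbud genes (24 listed), 2 were lower and 1 higher, with a median of 0.01. The lower ones were Tbx4, a T-box factor of the hindlimb and allantois, and the forkhead gene Foxb1 (-0.30 ± 0.26, SD, n = 2 arrays; limma adjusted p = 0.00118). Tbx4 had a mean of -0.72 ± 0.11, or 1.64-fold lower (limma adjusted p = 4.63e-08). Its Nxn-null channels did not pass background, so the size of the fold is uncertain. The higher one was Evx2, the neighbour and relative of Evx1 (0.32 ± 0.19; limma adjusted p = 5.65e-04). Without the dye term 1 of the 17 was called, as lower, beside 459 of all 17160 genes in either direction. Between the stages 9 of the 17 fell and 1 rose, with a median of -0.49, beside 21.1% and 21.0% of all genes. The falls of Wnt3a and Cyp26a1 thus had the same direction as most of this list.

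Genes of presomitic and early somite mesoderm, downstream of Tbx6 and Msgn1, had a median of -0.06 at E9.5. Of 18 tested (22 listed), 4 were lower and 1 higher, beside 14.8% and 9.88% of all genes. Meox1, a homeobox factor of the somite, was lowest (-0.53 ± 0.0066, SD, n = 2 arrays; limma adjusted p = 1.66e-06) and was also lower at E11.5 (-0.23, limma adjusted p = 0.0209), where 5.64% of all genes were called lower and 3.67% higher. The forkhead factor Foxc2 stood at -0.35 ± 0.49, with an SD larger than its mean, and Pax9, a factor of the sclerotome, was higher (0.24 ± 0.06; limma adjusted p = 0.00796). Without the dye term 1 of the 18 was called, as lower. Their summed signal was 26620 to 27530 for Nxn-null and 29290 to 30140 for wild type at E9.5.

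Posterior Hox genes, which specify lumbar to tail identity and are regulated by caudal factors, were lower at E9.5 in 11 of 13 tested (17 listed) and higher in 0, with a median of -0.34. Of all genes 14.8% were called lower and 9.88% higher. Of the 13, 3 were at least 2-fold lower, and 3 did not pass background on either Nxn-null channel. Hoxd13 stood at -1.38 ± 0.14 (SD, n = 2 arrays; limma adjusted p = 8.07e-13) and Hoxc9 at -1.33 ± 0.10 (limma adjusted p = 1.81e-12), 2.59-fold and 2.51-fold lower. They are the 2 lowest of a list chosen with these data known, so the p-values are descriptions only. At E11.5 no Hox gene of the list was called and the median was -0.03. Between the stages Hoxd13 rose by 1.61 ± 0.395 on average over the genotypes (moderated SE, n = 2 genotypes; limma adjusted p = 0.0421). Its mean log2 level went from 8.02 to 10.4 in the Nxn-null RNA and from 9.40 to 10.24 in wild type. The average thus describes neither genotype. Without the dye term 6 of the 13 were called lower at E9.5, beside 459 of all 17160 genes in either direction. Summed signals at E9.5 were 9058 to 9534 for Nxn-null and 13510 to 13980 for wild type.

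Retinoic acid pathway genes, the setting of Cyp26a1, were mixed. Of 13 tested (15 listed), 2 were lower and 4 higher at E9.5, with a median of 0.07, beside 14.8% and 9.88% of all genes. Aldh1a2, the enzyme that makes retinoic acid in trunk mesoderm, was lower (-0.30 ± 0.15, SD, n = 2 arrays; limma adjusted p = 0.00127), as was the retinol transporter Stra6 (-0.19 ± 0.07). The binding proteins Crabp1 (0.44 ± 0.56) and Crabp2 (0.25 ± 0.36) were called higher with SDs above their means. None of the 13 was called without the dye term.

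Several of the 10 genes are also made by tissues other than the tailbud, and lists of such tissues stand beside them. Their counts at E9.5 stand against 14.8% of all genes called lower and 9.88% called higher. All 12 yolk sac endoderm markers were lower at E9.5 beyond array spread, 10 of them at least 2-fold, with a median of -3.04 and S100g (-4.73 ± 0.45, SD, n = 2 arrays) and Cubn (-4.25 ± 0.45) lowest. None was without signal: all 12 were well above background on both wild-type channels at E9.5 and 10 on both Nxn-null channels, and S100g passed on 1 Nxn-null channel. Gut endoderm, in which Cdx2 continues to be made, had 4 lower and 1 higher of 11 tested markers (12 listed) and a median of -0.17. Their summed signals were 30040 to 31340 against 36970 to 38060 in wild type. The keratin gene Krt18, at a mean log2 level of 13.83 against 14.19 in wild type, makes up a large share of these sums. Foxa1, Shh and Trh had ratios above 0 and the other tested markers below 0. Trophoblast and placenta, another known site of Cdx2, had 2 lower and 2 higher of 7 tested (12 listed) and a median of 0.05. Their summed signals were 3647 to 3871 against 5051 to 5897, and 3 more on the arrays were never well above background. The genes of this list went opposite ways: Phlda2, an imprinted growth regulator of placenta, was lower (-2.21 ± 0.38) and Prl3d1, a placental lactogen, higher (1.06 ± 0.26). Phlda2 had a mean log2 level of 9.185 against 11.39 in wild type, and the lower sum rests largely on it. Without the dye term 11 yolk sac markers, 1 lower and 1 higher trophoblast gene and 0 gut markers were called. The part of these tissues in the ratios of Cdx2, Tbx6 and T was not tested.

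For Wnt3a, Evx1 and Gbx2 the other tissues are the roof plate, spinal interneurons and the midbrain-hindbrain border. Of 11 tested markers (15 listed), 0 were lower and 3 higher at E9.5, with a median of 0.12, beside 14.8% and 9.88% of all genes. The interneuron factor Dbx1 was at 0.23 ± 0.04 (SD, n = 2 arrays) and the forebrain and midbrain factor Otx2 at 0.21 ± 0.20. Their summed signals were 23110 to 23390 for Nxn-null and 20270 to 22080 for wild type. Of the genes not called, Wnt1 was at 0.12, Msx1 at 0.13, Rspo1 at 0.01 and Gdf7 at -0.03. Wnt3a was at 0.55, and the part of neural tissue in its ratio was not tested. Of the 11, 0 were called without the dye term.

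**Figure D5:**
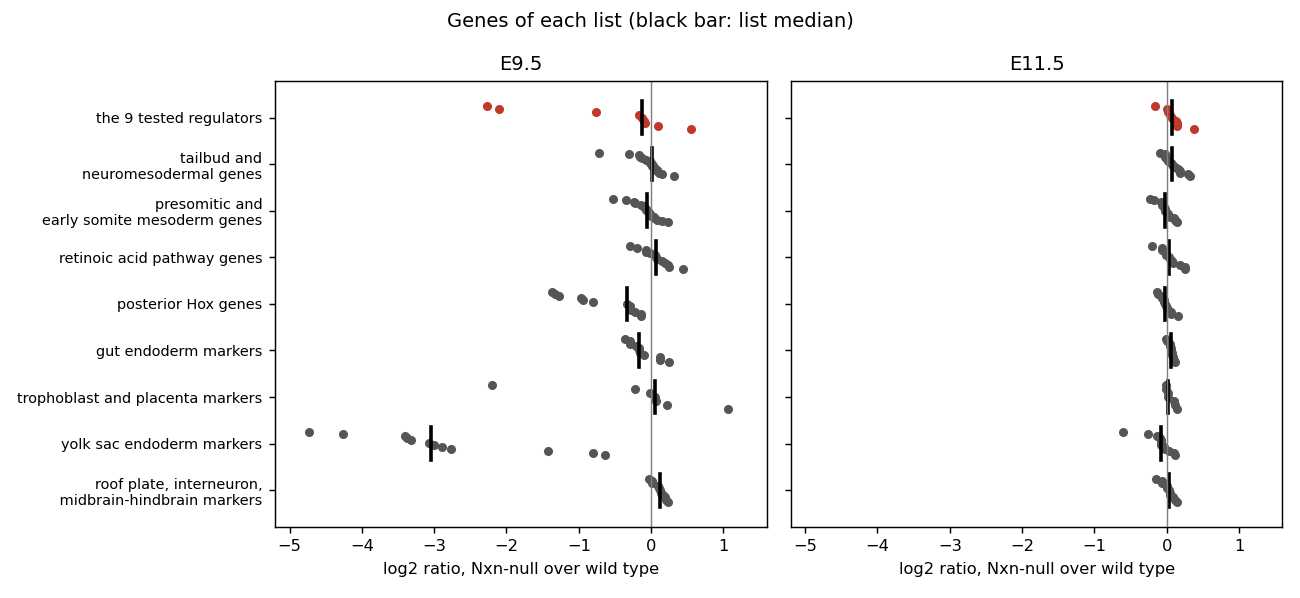
Mean log2 ratio of Nxn-null over wild type (horizontal axis) for each tested gene of the 9 regulators (red) and of 8 other lists (grey) at E9.5, left, and E11.5, right; black bars are list medians. At E9.5 yolk sac endoderm markers have a median of -3.04 and posterior Hox genes of -0.34, and at E11.5 all medians lie between -0.08 and 0.08.

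The genes with levels most like those of the leading members were found by the Euclidean distance over the 8 channels, each gene centred on its mean, among 13422 genes well above background in all 8. For Tbx6 they were the protease gene Ctsh (distance 0.41; E9.5 ratio -2.30), the phospholipase gene Pla2g12b (0.542; -1.66) and Apom, an apolipoprotein of lipid-secreting epithelia (0.648; -2.48). For Cdx2 they were the zinc transporter gene Slc39a4 (0.469; -2.20), the threonine dehydrogenase gene Tdh (0.552; -2.35) and Phlda2 (0.656; -2.21). For T they were Sigirr (0.222; -0.88), Nebl (0.227; -0.79) and Tmem30b (0.283; -0.61). Of these 9, Phlda2 is on the trophoblast and placenta list, and no gene of the tailbud, presomitic or Hox lists was among them. With 9 genes taken from 13422, few genes of any short list could appear. The distances also use the ratios known when the members were chosen, so nothing is read from this. For Wnt3a they were Supt16 (0.378), Olig3, a factor of the dorsal spinal cord (0.411; 0.50 at E9.5), and Unc5a, a netrin receptor of neurons (0.42).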

How the data were processed

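Total RNA was amplified from an oligo-dT primer and labelled with Cy3 or Cy5, per the labels' protocols. The deposited scanner files hold linear spot intensity, local background and the marks for outliers and for signal well above background that Agilent Feature Extraction sets, version 9.1.3.1 per the file headers and 9.5.3.1 per the submitters' processing notes. The deposited values of the series were found to equal the log10 ratio of the processed signals, Nxn-null over wild type, on all but a few probes, and served as an alternative.

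Mean intensities were corrected with normexp (offset 50), normalized by loess within arrays and, for single channels, by Aquantile between arrays (limma 3.58.1, R 4.3.3; jsonlite 2.0.0; the data.table package, version 1.17.8). Figures used matplotlib 3.10.9 under Python 3.11.15. Control spots had weight 0, spots of a probe were averaged, and 293 probes with outlier marks were left out. A probe was kept where more than 0.5 of its spots passed background with the same genotype on both arrays of either stage, which left 24993 probes. The brightest probe stood for each of 17160 genes. T, Msgn1, Cdx2 and Evx1 passed this filter through wild type at E9.5 and Nxn-null at E11.5, and Cdx1 through wild type at E9.5 alone. Symbols came from RefSeq (GRCm38.p6). Benjamini-Hochberg adjustment ran over all genes, at a threshold of 0.05, and each fit leaves 1 residual degree of freedom, so precision is limited by the 4 arrays.

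The named genes were all members, up to 2 highest and 2 lowest called genes of each other list, and the 3 nearest patterns of 4 members. Members and lists were chosen with earlier results of these data known. Alternatives were another offset, Feature Extraction signals, median centring, other filters, the mean of probes, no dye term, other normalization between arrays and each array left out.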

Additional observations from a re-analysis of the deposited data

Results flagged for a closer look

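For 6 of the 10 genes the ratio of Nxn-null over wild type was below 0 on both E9.5 arrays and above 0 on both E11.5 arrays. The same pattern was found in 5.78% of all genes tested, which leave out Cdx4, 1 of the 6. The count of 6 depends on the processing. Median centring in place of loess turned the later-stage mean of T to -0.01. It also reversed both means of Cdx1, to 0.13 for the earlier stage and -0.18 for the later. Feature Extraction processed signals likewise put the later-stage mean of Cdx1 below 0 (-0.14). The difference between the stages was not tested for these genes, because they were chosen with these ratios known. The E11.5 minus E9.5 difference of the log2 ratio was 2.16 for Tbx6 (from -2.11 to 0.05) and 0.83 for T (from -0.77 to 0.07). It was 0.45 for Cdx4, which was well above background in 1 wild-type channel at E9.5 and in none at E11.5. For Evx1 it was 0.27 and for Cyp26a1 0.24, with ratios within 0.15 of 0 at both stages. For Cdx1 it was 0.099, with no channel well above background at E11.5.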

How the results depend on the processing

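The ratios of T, Tbx6, Cdx2 and Wnt3a at E9.5 kept their sign under every alternative run. Their ranges were -2.03 to -0.70, -2.81 to -2.01, -3.39 to -2.18 and 0.50 to 0.66. For T, Tbx6 and Cdx2 the lower ends came from the Feature Extraction processed signals and the upper ends from leaving out 1 E9.5 array. At E11.5 T ran from -0.01 with median centring to 0.435 with the deposited table. Of the members, 2 were 2-fold apart at E9.5, 3 (T being the third) with an offset of 10, Feature Extraction signals or the deposited table, and 1 with both genotypes required above background; members called between the stages then went from 4 to 2, since fewer genes are tested. Without each array in turn these counts stayed at 2 and 4, but without E9.5 replicate 1 Cdx2 (-1.29, adjusted p = 0.045) replaced Cdx1 (-0.34, adjusted p = 0.0575). Gbx2 was called (adjusted p = 0.0331) with 4 array-level differences. Over all genes, the stage effect called 7223 and, with Feature Extraction signals, 4383. Genes beyond array spread at E9.5 numbered 4231, but 1419 with Feature Extraction signals, 1403 with the deposited table, 679 with median centring, 459 with no dye term and 265 to 475 without 1 array. At E11.5 they numbered 1597, but 45, 44, 220, 28 and 16 to 144. The cause was not tested. Without the dye term 11 yolk sac and 6 posterior Hox genes were called at E9.5. The slide as a block was not run, because all arrays lie on 1 slide. No paired analysis was possible because the labels give the arrays no replicate numbers, beyond the pairing of genotypes within each array that every ratio uses. Signals near background limit T, Cdx1, Cdx2, Cdx4, Msgn1 and Evx1.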
